A study of Mus musculus with 6 samples.

Results

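The nuclear genes for the subunits of oxidative phosphorylation were compared between lung tumors and normal lung of a mouse model of small cell lung cancer. Genes were taken by name, with the prefixes Nduf (followed by a, b, c, s or v and a digit), Uqcr, Cox4 to Cox8 and Atp5 (followed by a letter). Sdha, Sdhb, Sdhc, Sdhd and Cyc1 were taken by their full names. This gave 85 of the 22477 gene symbols in the count table. Of these, 74 encode subunits used in most tissues, namely 35 of complex I, 4 of complex II, 9 of complex III, 11 of complex IV and 15 of complex V. Another 8 encode forms restricted to certain tissues, and 3 share the name pattern without being subunits. The subunits encoded by mitochondrial DNA were not analysed here.

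Oxidative phosphorylation takes place in the inner mitochondrial membrane. Complexes I and II take electrons from NADH and succinate and pass them to coenzyme Q, complex III passes them on to cytochrome c, and complex IV hands them to oxygen. Complexes I, III and IV pump protons, and complex V, the ATP synthase, lets the protons flow back and makes ATP. Complexes I, III, IV and V combine nuclear with mitochondrially encoded subunits, whereas complex II is encoded by nuclear genes alone. Several complex IV subunits exist in a ubiquitous form and in a form found mainly in muscle, lung or testis.

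RNA sequencing covered 4 lung tumors, numbered 3 to 6 after the sample titles, and 2 normal lung samples, numbered 1 and 2. All 6 carry the genotype label Rb1/Trp53/MycT58A, in which Cre removes both tumor suppressor genes and activates a stabilized Myc mutant. All 6, the normal lung included, are also labelled as treated with Ad5CGRP-Cre, an adenovirus whose CGRP promoter directs Cre to pulmonary neuroendocrine cells and which the protocol gives into the trachea at 8 weeks of age. Each library came from a different animal and all belong to batch 1; the age at collection and the treatment arm of the animals are not given in the labels. Whether the normal lung held recombined cells is likewise not stated.

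Total counts were 70817440, 54735438, 69616373 and 65859501 in tumors 3, 4, 5 and 6, against 99122494 and 91049413 in normal 1 and 2. The 9 neuroendocrine markers summed to 809 to 1424 CPM (counts relative to the library total, scaled by the TMM method) in tumors, against 19.1 and 24.4 CPM in normal lung, and all 9 were higher. The 8 markers of alveolar, airway and endothelial cells summed to 102 to 694 CPM in tumors, against 39557 and 43800 CPM in normal lung, so the tissue labels held in all 6 libraries. RNAs without a poly(A) tail (Rn45s, Rpph1 and Rmrp) took 13.9%, 11.8%, 5.46% and 9.32% of the counts in tumors 3, 4, 5 and 6, against 0.238% and 0.550% in normal 1 and 2. Tumor 6 also held skeletal muscle RNA, with 1025 CPM over 11 skeletal muscle markers, against at most 6.09 CPM in the other tumors and at most 16.7 CPM in normal lung. Normal 2 had the most heart muscle RNA, with 857 CPM over 16 markers, against 338 CPM in normal 1 and 43.3 to 135 CPM in tumors.

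The bases just upstream of the transcription start are shown for 4 subunit genes whose values are taken up below. Ndufb4 had the highest fold change of complex I and Ndufs6 the third highest, and Sdhd and Sdha encode subunits of the same complex that differed in opposite directions. Each line gives the 110 bases before the RefSeq start on GRCm38.p6, 5′ to 3′ on the gene's strand. Capitals mark matches to the motif of the transcription factor NRF1, searched as GCGC on both sides of the bases NT, where N is any base, and to CCGGAAG, an ETS family motif bound by GABPA, on either strand. Both factors are known regulators of respiratory chain genes.
Ndufb4, chr16:37654369-37654478, minus strand: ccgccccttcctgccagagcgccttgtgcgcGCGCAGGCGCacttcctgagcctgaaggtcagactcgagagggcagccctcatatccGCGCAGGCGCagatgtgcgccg
Ndufs6, chr13:73328483-73328592, minus strand: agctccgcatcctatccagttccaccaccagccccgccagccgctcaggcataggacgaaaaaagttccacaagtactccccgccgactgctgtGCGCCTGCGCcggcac
Sdha, chr13:74350241-74350350, minus strand: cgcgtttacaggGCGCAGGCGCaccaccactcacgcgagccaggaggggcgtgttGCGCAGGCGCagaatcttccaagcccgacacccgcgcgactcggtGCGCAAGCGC
Sdhd, chr9:50603850-50603959, minus strand: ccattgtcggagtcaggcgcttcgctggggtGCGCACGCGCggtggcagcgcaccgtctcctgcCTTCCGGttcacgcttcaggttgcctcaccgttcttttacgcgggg
Sdha, which was lower in tumors, held 3 NRF1 motif matches in this stretch, and Ndufb4 held 2 matches. Over promoters of 300 bases (250 before and 50 after the start), the NRF1 motif was found in 16 of the 62 ubiquitous subunit genes that have an entry (25.8%) and in 6.60% of 17491 protein-coding genes. All 4 genes shown held it, whereas Ndufb6 and Ndufb8, also among the highest fold changes of complex I, did not. For the ETS motif the shares were 24.2% of the subunit genes and 11.9% of all protein-coding genes, and for CACGTG, the E-box that Myc binds, 9.68% and 7.90%. None of the 3 motifs was found in the 4 tissue-restricted members with an entry. The median log2 fold change, tumor over normal, was 1.55 in the 16 subunit genes with the NRF1 motif and 1.50 in the 46 without. For the ETS motif it was 1.48 in 15 genes with and 1.51 in 47 without. For the E-box it was 1.56 in 6 genes with and 1.49 in 56 without. Subunit genes with and without each motif had nearly the same median, though the 6 with the E-box spanned 0.57 to 2.46. A link between motif and fold change was not tested. A match is a description of the sequence, and binding of these factors was not measured.

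The ubiquitous subunit genes as a group were higher in tumors. Of the 74, 67 were higher, 1 was lower and 6 did not pass the threshold (edgeR quasi-likelihood test, Benjamini-Hochberg adjusted p under 0.05 over 18027 genes), while 31.3% of all genes tested were higher. Their median log2 fold change was 1.49, a 2.81-fold difference, against 0.02 for all genes tested. In 52 of the 74 the difference was a called increase of at least 2-fold, which 25.7% of all genes tested reached. For 69 of the 74 every tumor lay above both normal samples, which held for 37.4% of all genes tested. In bulk tissue, more cells of a type and more RNA per cell cannot be told apart.

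**Figure D1:**
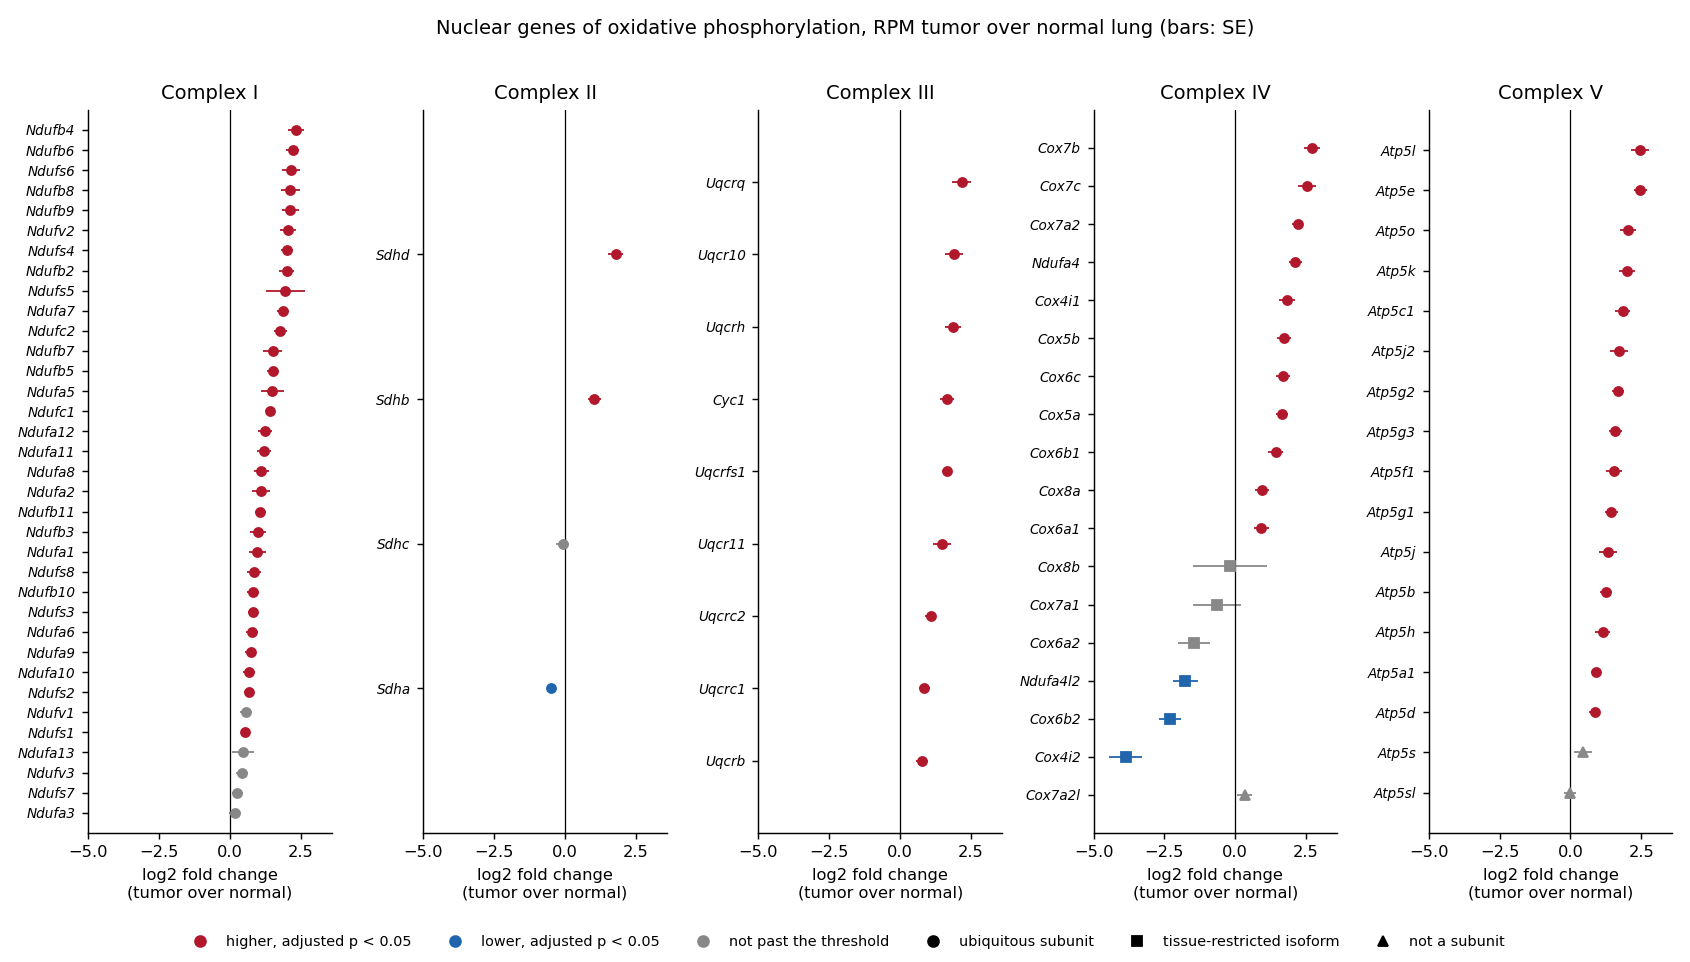
Log2 fold change of each tested member, tumor over normal, with its standard error as a horizontal bar, in 1 panel per complex. Red points are higher, blue points lower and grey points not past the threshold; circles are ubiquitous subunits, squares tissue-restricted forms and triangles names that are not subunits. Every ubiquitous member of complexes III, IV and V is red, and the blue points are Sdha, Ndufa4l2, Cox6b2 and Cox4i2.

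Summed over its ubiquitous subunit genes, each complex was higher in every tumor than in either normal library. Complex I summed to 4916, 4041, 3012 and 3460 CPM in tumors 3, 4, 5 and 6, against 1505 and 1616 CPM in normal 1 and 2. Complex IV, cytochrome c oxidase, reached 4379, 3430, 2698 and 3308 CPM in tumors, against 934 and 1000 CPM in normal lung, the largest ratio of means of the 5 complexes at 3.57. The ratio was 2.72 for complex III, 2.66 for complex V, 2.47 for complex I and 1.40 for complex II. Complex II came closest to overlap, with 669, 683, 478 and 533 CPM in tumors, against 408 and 439 CPM in normal lung. The median transcript length was 618 nt for complex IV, 963 nt for complex III, 742 nt for complex V, 870.5 nt for complex I and 2065.5 nt for complex II. Differences between complexes, and the part of transcript length in them, were not tested.

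**Figure D2:**
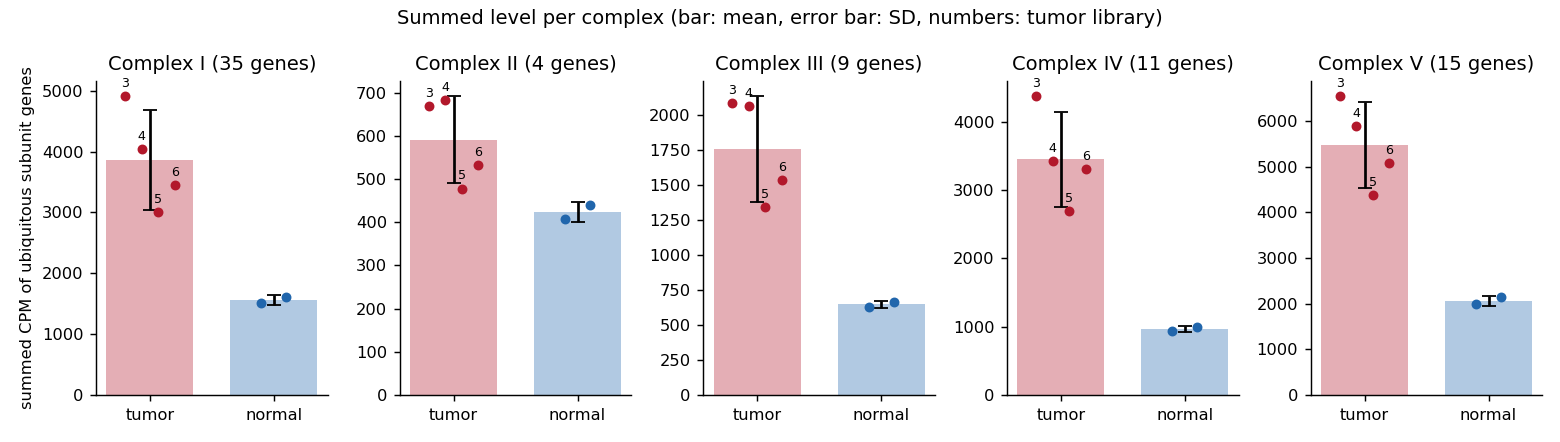
Summed CPM of the ubiquitous subunit genes of each complex, with tumors left and normal lung right; bars are means, error bars SD and points single libraries, numbered for tumors (4 tumors, 2 normal samples). Each axis starts at 0 and has its own scale. Tumor 3 or 4 is the highest and tumor 5 the lowest of the tumors in every panel.

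Complex I takes electrons from NADH and is the largest complex of the chain. Of its 35 genes, 30 were higher and 5 did not pass the threshold, while 31.3% of all genes tested were higher. Their median log2 fold change was 1.11. The strongest differences were in accessory subunits, which surround the catalytic core. Ndufb4, a membrane arm subunit, had 104, 98.0, 59.2 and 90.6 CPM in tumors 3 to 6, against 16.7 and 18.0 CPM in normal 1 and 2. All tumors lay well above both normal samples, at a log2 fold change of 2.34 ± 0.27 (SE; edgeR adjusted p = 0.000498). Ndufb6 and Ndufb8, also of the membrane arm, had log2 fold changes of 2.22 ± 0.24 and 2.14 ± 0.35. Ndufs6, an accessory subunit of the part that binds NADH, had 156, 153, 87.2 and 93.2 CPM in tumors, against 26.4 and 28.1 CPM in normal lung. It was 4.50-fold higher, with tumors 3 and 4 far above tumors 5 and 6.

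The low end of complex I held genes that could not be called. Ndufa3, a small accessory subunit, had 72.2, 52.3, 44.4 and 53.0 CPM in tumors, against 48.0 and 49.1 CPM in normal lung, and tumor 5 lay below both normal samples. Ndufs7, which carries the last iron-sulfur cluster before coenzyme Q, had 35.5, 36.4, 28.8 and 42.2 CPM in tumors, against 29.5 and 29.8 CPM in normal lung, so the groups overlapped. Ndufa13, an accessory subunit also known as Grim19, reached 152 CPM in tumor 3 but only 62.8 to 72.4 CPM in the other tumors, against 61.4 and 66.0 CPM in normal lung. Ndufv3 (log2 fold change 0.43 ± 0.20) and Ndufv1 (0.57 ± 0.21, edgeR adjusted p = 0.0522) had every tumor above both normal samples but also missed the threshold. With upper quartile scaling and with the stricter filter both passed it, and Ndufv1 also passed with RLE scaling, total counts, DESeq2 and limma voom.

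Ndufs5 was called on uneven values. It had 18.1, 28.7, 6.98 and 7.33 CPM in tumors 3 to 6, against 3.86 and 3.97 CPM in normal lung, with an edgeR adjusted p of 0.0395, and the call was lost with limma voom, with the length offset described below, and without tumor 3, normal 1, normal 2, or normal 2 and tumor 6 together. Split by role, 25 of the 28 accessory genes were higher, with a median log2 fold change of 1.33. Of the 7 core genes 5 were higher, with a median of 0.69, while 31.3% of all genes tested were higher. The median transcript length was 748 nt for the accessory and 1623 nt for the core genes. The part of length in that gap was not tested.

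Complex II oxidizes succinate to fumarate and is also an enzyme of the tricarboxylic acid cycle. Its 4 genes did not share a direction. Sdhd, a membrane anchor, had 297, 292, 184 and 192 CPM in tumors 3 to 6, against 68.6 and 71.1 CPM in normal 1 and 2, a log2 fold change of 1.79 ± 0.27 (edgeR adjusted p = 0.00155). Sdhb, the iron-sulfur subunit, was 2.05-fold higher, at 93.3 to 149 CPM in tumors and 58.2 and 64.7 CPM in normal lung. Sdhc, the other anchor, had 73.3, 88.9, 54.2 and 61.2 CPM in tumors, against 70.4 and 76.6 CPM in normal lung, and the groups overlapped (log2 fold change −0.08 ± 0.22). Sdha, the flavoprotein with the catalytic site, had 153, 153, 146 and 164 CPM in tumors, against 210 and 227 CPM in normal lung. It was the single ubiquitous subunit gene called lower, with all 4 tumors below both normal samples (log2 fold change −0.50 ± 0.13, edgeR adjusted p = 0.0142). Its fold change stayed between −0.57 and −0.44 with any library left out, but the edgeR call was lost without normal 1 (adjusted p = 0.0718) and without normal 2 (adjusted p = 0.118).

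All 9 genes of complex III, which moves electrons from coenzyme Q to cytochrome c, were higher (31.3% of all genes tested). Small subunits led, with Uqcrq at 160, 123, 76.3 and 96.8 CPM in tumors, against 22.7 and 27.4 CPM in normal lung (log2 fold change 2.18 ± 0.33), and Uqcr10 and Uqcrh at 1.92 ± 0.32 and 1.87 ± 0.28. Cyc1, the cytochrome c1 subunit that carries a heme, had 153, 171, 102 and 116 CPM in tumors, against 40.3 and 45.3 CPM in normal lung, a 3.16-fold difference. The large core proteins Uqcrc1 and Uqcrc2 differed less, at log2 fold changes of 0.85 ± 0.20 and 1.08 ± 0.19, and the small subunit gene Uqcrb least, at 0.77 ± 0.22. Uqcr11, another small subunit, had 217, 223, 118 and 148 CPM in tumors, against 60.4 and 66.3 CPM in normal lung.

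All 11 ubiquitous genes of complex IV were higher as well (31.3% of all genes tested), at a median log2 fold change of 1.73. Cox7b, a small membrane subunit, had 516, 476, 313 and 506 CPM in tumors 3 to 6, against 67.1 and 71.6 CPM in normal 1 and 2. This was the highest fold change of the 74 ubiquitous genes, 6.52-fold (log2 fold change 2.71 ± 0.27, edgeR adjusted p = 0.000283). Cox7c had 397, 283, 198 and 252 CPM in tumors, against 47.7 and 49.8 CPM in normal lung, and was 5.79-fold higher. Ndufa4, named for complex I but a subunit of complex IV, had 328 to 507 CPM in tumors, against 97.3 and 103 CPM in normal lung. The smallest differences were in Cox6a1 and Cox8a, with log2 fold changes of 0.92 ± 0.27 and 0.95 ± 0.24. Cox6b1 and Cox5a were 2.68-fold and 3.12-fold higher, and Cox7a2, the ubiquitous partner of the muscle form Cox7a1, was 4.62-fold higher, at 317 to 420 CPM in tumors, against 73.4 and 77.5 CPM in normal lung. Cox4i1, the ubiquitous form of the largest nuclear subunit, had 904, 540, 558 and 584 CPM in tumors, against 176 and 187 CPM in normal lung, and its tumor 3 value stood apart from the rest.

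All 15 ubiquitous genes of complex V were higher (31.3% of all genes tested), at a median log2 fold change of 1.59. Atp5e, the epsilon subunit of the catalytic F1 head, had 438, 340, 289 and 323 CPM in tumors, against 62.1 and 64.2 CPM in normal lung, a log2 fold change of 2.46 ± 0.23 (edgeR adjusted p = 0.000206). The 4 other F1 genes ranged from 0.86 ± 0.19 for Atp5d (delta) to 1.85 ± 0.26 for Atp5c1 (gamma). Atp5b (beta), which holds the catalytic sites, was the most counted subunit gene, at 1501, 1549, 1121 and 1219 CPM in tumors, against 545 and 588 CPM in normal lung. Of the stalks and membrane part, Atp5l (subunit g), Atp5o, which attaches the head to the outer stalk, and Atp5k (subunit e) had log2 fold changes of 2.46 ± 0.33, 2.02 ± 0.29 and 2.00 ± 0.27. Atp5h, subunit d of the outer stalk, stood at 1.13 ± 0.26, and Atp5a1 (alpha), also of the head, at 0.91 ± 0.18.

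The proton-carrying ring of complex V is built from subunit c, and Atp5g1, Atp5g2 and Atp5g3 encode the same mature protein with different import signals. All 3 were higher in tumors, with log2 fold changes of 1.44 ± 0.23, 1.67 ± 0.21 and 1.59 ± 0.22. Atp5g3 took 61.2%, 54.4%, 57.2% and 55.8% of their joint counts in tumors 3 to 6, against 57.5% and 54.8% in normal 1 and 2. The share of Atp5g2 was 14.6% to 17.0% in tumors, against 15.2% and 14.5% in normal lung. The ratio of Atp5g1 to Atp5g3 differed by −0.14 on the log2 scale and that of Atp5g2 to Atp5g3 by 0.08, with overlapping groups in both (exact two-sided permutation p = 0.533 for each). Since 4 against 2 libraries allow no p below 0.0667, this does not show that the mix was unchanged. Reads from the stretch they share may be split between them.

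Measured per kilobase of transcript, Cox4i1 was the most abundant of the ubiquitous genes in tumors, with a mean of 857 CPM per kb, against 241 in normal lung. Atp5e followed with 826 CPM per kb in tumors and 150 in normal lung, Ndufa4 with 819 in tumors and 189 in normal lung, and Uqcrh with 746 in tumors and 204 in normal lung. At the other end stood Sdhc, at 21.9 CPM per kb in tumors and 23.2 in normal lung, and Ndufs5, at 25.5 in tumors and 6.54 in normal lung. These levels use the main annotated transcript, which may differ from the one expressed.

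None of the tissue-restricted forms was called higher. Of the 8, 6 were tested: 0 were higher, 3 were lower and 3 did not pass the threshold, while 32.6% of all genes tested were lower. Their median log2 fold change was −1.60, and in 4 of them every tumor lay below both normal samples, which held for 39.8% of all genes tested. Cox7b2 and Cox8c, known from testis, had at most 8 counts in any library and were not tested.

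Cox4i2, the form of the largest nuclear subunit known from lung and induced at low oxygen, had 1.46, 2.26, 3.10 and 0.583 CPM in tumors 3 to 6, against 26.3 and 27.9 CPM in normal 1 and 2. It was 14.6-fold lower (log2 fold change −3.87 ± 0.58, edgeR adjusted p = 0.00142), and the call held without any single library. Ndufa4l2, the relative of Ndufa4 that low oxygen induces, had 3.20, 4.79, 4.92 and 9.75 CPM in tumors, against 18.8 and 19.6 CPM in normal lung, a 3.38-fold lower level (edgeR adjusted p = 0.0108). That edgeR call was lost without normal 1 (adjusted p = 0.0530) and without normal 2 (adjusted p = 0.0557), and the gene overlaps Shmt2. Both genes are known from pericytes, contractile cells of small vessels. The 8 pericyte markers summed to 174, 165, 241 and 162 CPM in tumors 3 to 6, against 472 and 419 CPM in normal lung. Of these markers 5 were lower, 1 was higher and 2 did not pass the threshold (32.6% lower and 31.3% higher over all genes). Of the defining ones, Pdgfrb averaged 25.9 CPM in tumors and 195 CPM in normal lung, and Kcnj8 averaged 8.91 CPM in tumors and 7.33 CPM in normal lung. The part of pericyte content in these calls was not tested.

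Cox6b2, known from testis, had 0.656, 0.982, 0.794 and 0.464 CPM in tumors, against 3.45 and 3.71 CPM in normal lung. All 4 tumors lay below both normal samples (log2 fold change −2.31 ± 0.40, edgeR adjusted p = 0.00261), and the call held without any single library. The 6 germ cell markers summed to 2.14 to 3.10 CPM in tumors, against 14.1 and 17.5 CPM in normal lung. Of the 2 tested, 1 was lower and 0 were higher, against 32.6% and 31.3% of all genes tested. Of the defining ones, Ddx4 averaged 0.393 CPM in tumors and 0.227 CPM in normal lung and did not pass the threshold. The sperm gene Prm1 averaged 0.073 CPM in tumors and 0.0054 CPM in normal lung and was not tested. The part of germ cell RNA in the Cox6b2 call was not tested.

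Cox6a2, Cox7a1 and Cox8b, the forms of heart and skeletal muscle, did not pass the threshold. Cox6a2 had 5.96, 1.35, 2.41 and 4.34 CPM in tumors 3 to 6, against 7.56 and 11.7 CPM in normal 1 and 2, with every tumor below both normal samples (log2 fold change −1.45 ± 0.58, edgeR adjusted p = 0.0630). It was called lower by DESeq2 (adjusted p = 0.0385), by limma voom (adjusted p = 0.0236), without tumor 3, and with the length offset described below (edgeR adjusted p = 0.00986). Cox7a1 had 2.62, 0.884, 0.456 and 3.23 CPM in tumors, against 1.44 and 4.16 CPM in normal lung. Cox8b had 1.31, 0.314, 0.247 and 6.61 CPM in tumors, against 1.44 and 3.37 CPM in normal lung. In each, normal 2 exceeded normal 1, as it did in heart muscle markers. Tumor 6, the library with skeletal muscle RNA, was the highest tumor for Cox7a1 and Cox8b, whereas tumor 3 was highest for Cox6a2. Without tumor 6 the log2 fold change of Cox8b was −1.83 and without normal 2 it was 0.54, and that of Cox7a1 was 0.30 without normal 2. With the length offset Cox7a1 was called lower, at a log2 fold change of −2.13 (edgeR adjusted p = 0.0412), against −0.64 without the offset. Of the heart markers 9 of 15 tested were lower in tumors, and of the 11 skeletal muscle markers 0 were called. Of all genes tested, 32.6% were lower and 31.3% higher. Brown fat, which also uses Cox7a1 and Cox8b, had 5 markers that summed to 3.34 to 8.23 CPM in tumors, against 32.2 and 39.9 CPM in normal lung. Of its 4 tested markers 1 was lower and 1 higher, the higher one being Ucp1, the defining marker, at 0.894, 0.118, 0.130 and 1.08 CPM in tumors 3 to 6, against 0 and 0.0216 CPM in normal 1 and 2. The part of muscle or fat tissue in these values was not tested.

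**Figure D3:**
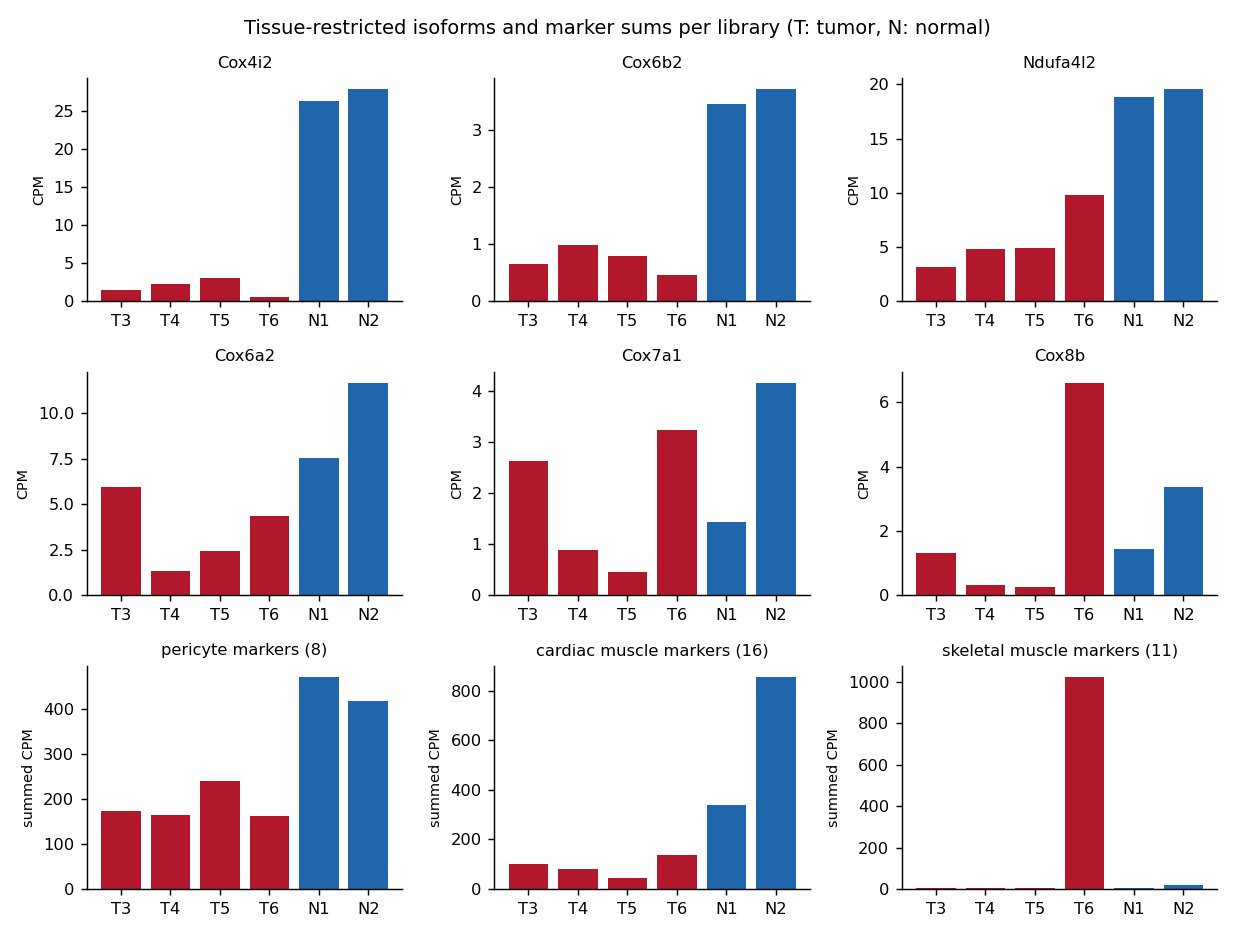
CPM of the 6 tested tissue-restricted genes (upper and middle rows) and summed CPM of pericyte, heart and skeletal muscle markers (lower row) in each library, tumors left in red and normal lung right in blue. Cox4i2, Cox6b2, Ndufa4l2 and Cox6a2 are lower in every tumor than in both normal samples, and Cox8b and the skeletal muscle sum peak in tumor 6.

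The restricted forms were also set against their ubiquitous partners in the same library. A ratio taken within a library does not depend on scaling between libraries. After division by transcript length, Cox4i2 made up 0.318% ± 0.221 of the Cox4i1 and Cox4i2 total in tumors and 13.4% ± 0.0243 in normal lung (SD, n = 4 and n = 2), a difference in log2 ratio of counts of −5.83. Ndufa4l2 made up 0.734% of its pair in tumors and 9.81% in normal lung, and Cox6b2 made up 0.278% in tumors and 3.43% in normal lung. For Cox6a2 the share was 1.68% in tumors and 8.19% in normal lung, and for Cox7a1 it was 0.827% in tumors and 5.73% in normal lung. In these 5 pairs the groups did not overlap. Nor did the count ratios of Cox7b2/Cox7b and Cox8c/Cox8a, although Cox7b2 and Cox8c had at most 8 counts in any library. A share also depends on the partner, and the ubiquitous partners were higher in tumors. Cox7a1 itself overlapped between the groups in CPM (log2 fold change −0.64, not past the threshold), while Cox7a2 was 4.62-fold higher. Cox8b made up 0.983%, 0.227%, 0.289% and 6.40% of its pair in tumors 3 to 6, against 2.51% and 5.24% in normal lung, with tumor 6 above both normal samples. The exact two-sided permutation p was 0.0667 for each of the 5 pairs, which is the smallest that 4 against 2 libraries allow, and 0.111 after adjustment over 10 pairs, so the threshold of 0.05 could not be reached. For Cox8b the exact p was 0.333. It was 0.0667 for Cox7b2/Cox7b and 0.133 for Cox8c/Cox8a, so reaching the smallest p is not particular to the 5 pairs.

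**Figure D4:**
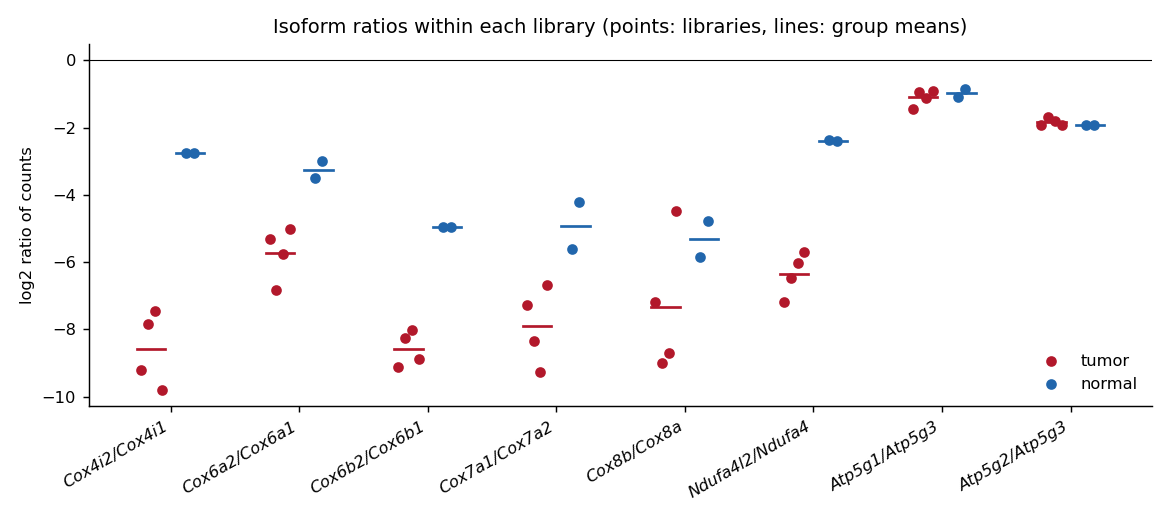
Log2 ratio of the counts (each plus 5) of a tissue-restricted or paralogous gene to its partner within each library; points are libraries, horizontal lines group means, tumors (red) left of normal lung (blue). In the first 3 pairs, in Cox7a1/Cox7a2 and in Ndufa4l2/Ndufa4, all tumors lie below both normal samples, while the Atp5g paralog ratios overlap. The pairs Cox7b2/Cox7b and Cox8c/Cox8a are not drawn.

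The tumors differed among themselves in their subunit gene levels. Tumor 3 was the highest tumor for 50 of the 74 ubiquitous genes, tumor 4 for 20, tumor 6 for 4 and tumor 5 for 0. Tumor 5 was the lowest for 65 of them. The median log2 level over the normal mean was 1.82, 1.52, 1.04 and 1.19 in tumors 3, 4, 5 and 6, and 1.74, 1.40, 1.17 and 1.21 with scaling to total counts alone. The share of RNAs without a tail, given above, put the tumors in the same order as these medians, and its part in them was not tested. With those RNAs and other small non-coding and histone genes removed from the table, 68 of the 74 genes were higher (32.1% of all genes).

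Transcript length moved with the fold change over the whole table, and subunit genes are short. Of the 1148 tested genes with transcripts under 750 nt, 50.6% were higher, with a median log2 fold change of 1.40. In the same class 33 of 34 ubiquitous subunit genes were higher, with a median of 1.68. Between 750 and 1500 nt the medians were 1.41 for the 23 subunit genes and 0.46 for all 2688 genes, and between 1500 and 3000 nt they were 0.99 for 16 and −0.05 for 6253. In these 3 classes the subunit genes lay above all genes of like length, by less in the shortest class than in the others. With the median deviation of genes of like length entered as an offset, an alternative chosen after seeing the data, 49 of the 74 were higher (33.3% of all genes), 2 were lower (31.7% of all genes) and their median log2 fold change was 0.78. Under it Ndufa3 was lower (log2 fold change −0.96, edgeR adjusted p = 0.00235), and Cox6a1, Cox8a, Uqcrb and Ndufs7 had values below 0. Why short transcripts were higher was not tested.

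**Figure D5:**
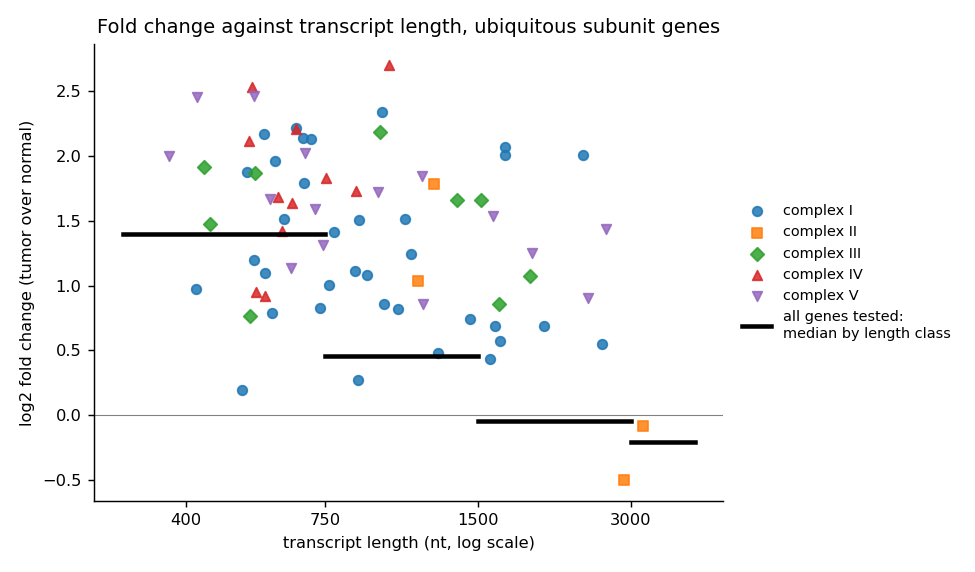
Log2 fold change, tumor over normal, of the 74 ubiquitous subunit genes against transcript length in nucleotides on a log axis, with a marker per complex. Black lines give the median of all genes tested in each of 4 length classes, 1.40 below 750 nt and −0.21 from 3000 nt. Most subunit genes lie above the line of their class.

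Calls depended on the normal libraries more than the fold changes did. Without normal 1, 40 of the 74 were higher (18.0% of all genes) and 0 lower (22.9% of all genes), at a median log2 fold change of 1.40. Without normal 2, 46 were higher (20.0% of all genes) and 0 lower (23.3% of all genes), at a median of 1.54. Leaving out both libraries rich in muscle RNA, normal 2 and tumor 6, gave 46 higher (19.0% of all genes) and 0 lower (22.0% of all genes), at a median of 1.63. Without any single tumor 66 to 68 were higher (29.5% to 32.9% of all genes). Of the 67 genes called higher, 48 share no exon bases with another annotated gene on GRCm38 and 19 do. Among the 19 are Atp5j (with Gabpa), Ndufb6 (Smim27), and Ndufb8 (Gm20538) and Atp5o (Donson), these last with a gene on the same strand. Ndufa13, which was not called, shares 375 bases with Tssk6. Many subunit genes also have processed pseudogenes, so reads may have been split between copies.

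The names that are not subunits were not called. Cox7a2l, a supercomplex assembly factor, had 98.2 to 182 CPM in tumors, against 109 and 127 CPM in normal lung (log2 fold change 0.34 ± 0.26). Atp5s, a coupling factor, and Atp5sl, a complex I assembly protein, had log2 fold changes of 0.45 ± 0.31 and −0.02 ± 0.20.

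Other genes of the pathway were read from 5 lists. The first, called carriers below, held subunits under other names, the ATP synthase inhibitor Atpif1, cytochrome c and coenzyme Q synthesis. All 14 of its genes were higher, with a median log2 fold change of 1.54. Over all genes tested, 31.3% were higher. Usmg5, a small ATP synthase subunit, had 276 to 549 CPM in tumors, against 44.6 and 45.2 CPM in normal lung (9.32-fold), and Pdss1, which makes the coenzyme Q tail, 25.8 to 36.5 CPM in tumors, against 3.89 and 5.82 CPM in normal lung. When normal 1, normal 2, or normal 2 with tumor 6 was left out, 9 of the 14 were higher, where 18.0%, 20.0% and 19.0% of all genes were. 2010107E04Rik, a small ATP synthase proteolipid, was 6.68-fold higher.

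Of 23 genes of mitochondrial import and the outer membrane, 21 were higher, 0 were lower and 2 did not pass the threshold. Over all genes tested, 31.3% were higher and 32.6% lower. Timm9, a chaperone between the membranes, had 61.5 to 111 CPM in tumors, against 6.82 and 8.67 CPM in normal lung, and Tomm20, an import receptor, 404 to 585 CPM in tumors, against 59.4 and 63.9 CPM in normal lung. Tomm70a, another import receptor, was 3.36-fold higher. Assembly factors were more mixed, with 26 of 44 higher, 1 lower and 17 not past the threshold. Uqcc2, an assembly factor of complex III, was 6.10-fold higher, Tmem70, of complex V, 4.45-fold higher and Ndufaf4, of complex I, 4.26-fold higher. Coa5, of complex IV, was lower, with 24.7 to 41.8 CPM in tumors, against 93.1 and 95.0 CPM in normal lung. Leaving out normal 1 gave 16 of the 44 assembly factors higher (18.0% of all genes), normal 2 gave 15 (20.0% of all genes), and normal 2 with tumor 6 gave 11 (19.0% of all genes).

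Tricarboxylic acid cycle genes split, with 10 of 18 higher, 2 lower and 6 not past the threshold. Idh3a, a subunit of isocitrate dehydrogenase, was 3.66-fold, Mdh2, malate dehydrogenase, 2.60-fold and Fh1, fumarate hydratase, 1.92-fold higher. Ogdh, a subunit of the 2-oxoglutarate dehydrogenase complex, was lower, with 114, 109, 144 and 138 CPM in tumors, against 288 and 309 CPM in normal lung, as was Pdha1 of pyruvate dehydrogenase (log2 fold change −0.58 ± 0.16). Leaving out normal 1 gave 5 of the 18 higher (18.0% of all genes), and leaving out normal 2, alone or with tumor 6, gave 6 (20.0% and 19.0% of all genes). Of 21 tested genes of mitochondrial gene expression and biogenesis, 10 were higher, 1 was lower and 10 did not pass the threshold. Tfam, which packages mitochondrial DNA and takes part in its transcription, was 2.92-fold higher. It had 75.4 to 97.4 CPM in tumors, against 29.4 and 30.1 CPM in normal lung. Slirp, which stabilizes mitochondrial messenger RNA, was 4.56-fold higher, Peo1, the mitochondrial helicase, was 3.71-fold higher, and Polg, the mitochondrial DNA polymerase, lower (log2 fold change −0.61 ± 0.19, edgeR adjusted p = 0.0300). The call of Polg was lost on leaving out normal 1, normal 2, tumor 3 or tumor 5. The regulators whose motifs are shown above were not called, with log2 fold changes of 0.36 ± 0.15 for Nrf1 and −0.11 ± 0.13 for Gabpa. Ppargc1a, a coactivator of mitochondrial genes, was not called either, at 1.10 ± 0.45, nor were Ppargc1b and Esrra. Of the related genes in the list, Gabpb1 was called higher, at 0.63 ± 0.18 (edgeR adjusted p = 0.0180). Pprc1 was also called higher, at 1.85 ± 0.31 (edgeR adjusted p = 0.00234). For comparison, 31.3% of all genes tested were higher and 32.6% lower.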

How the data were processed

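Tissue was flash frozen and homogenized, RNA and DNA came from 1 lysate, and NEBNext Ultra II libraries were made from poly(A) RNA, per the labels. Of the tools in the submitters' processing notes, given there without a role or order, the aligner was STAR 2.5.4a, with Trimmomatic 0.36, Trim Galore, R 3.5.1 and DESeq2 1.22.2 also named, and the build was mm9. Deposited were raw counts per gene symbol, which the authors obtained with TPMCalculator according to the labels. Its annotation and strand setting are not given in those sources, so reads of overlapping or near-identical genes cannot be told apart. Counts were whole numbers for each gene in each of the 6 libraries, and 0 value columns were left unused. Depth limits genes of a few counts, and p-values reflect the spread between animals. The normal libraries, and every pair of tumors, differed by more than sampling noise.

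All genes were fitted together with edgeR 4.0.16 in R 4.3.3 (quasi-likelihood test, filter at a minimum count of 10 and a minimum total of 15, TMM scaling, tissue as the only term) and adjusted by Benjamini-Hochberg over 18027 genes. The standard error was the log2 fold change divided by the square root of F. CPM use TMM-scaled library sizes. Isoform ratios add 5 to each count and were tested by exact permutation. Alternatives were other scalings and filters, DESeq2 1.42.0, limma 3.58.1 voom, removal of small non-coding and histone genes, and leaving out libraries. The test was checked on simulated counts whose planted changes were larger than that of any member. It was not checked at the sizes reported here. Transcript lengths (main annotated transcripts, GENCODE) and promoters (RefSeq, GRCm38.p6) come from GRCm38. All 85 members matched, 3 by an older symbol, and 69 had a promoter. That build differs from mm9, so positions are given for RefSeq promoters alone.

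Members, gene lists and tests were chosen with earlier results of these data known, and the split of complex I into core and accessory genes was chosen after the values were seen. The text names all tissue-restricted members with their partners, the Atp5g paralogs, the 4 highest and 4 lowest ubiquitous genes per complex, members called against the rest, non-subunits and up to 3 genes per direction of each list. Ndufs5, Ndufv1, Atp5c1, Nrf1, Gabpa, Gabpb1, Ppargc1a, Ppargc1b, Pprc1 and Esrra were named after their values were seen. The genes shown with sequence were also picked then.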

Additional observations from a re-analysis of the deposited data

Results flagged for a closer look

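Among the 4 tumors, 51 member genes, 9 marker lists and 5 complex sums were examined for a library standing apart from the other three by Dixon's criterion, which chance meets in about 1 in 20 groups. Cox8b at 6.61 CPM in tumor 6 stood above the other tumors, and the skeletal muscle markers summed to 1025 CPM in the same library. Cox4i1 at 904 CPM and Ndufa13 at 152 CPM stood apart in tumor 3, and Ndufv3 at 69.1 CPM in tumor 4. The pericyte markers summed to 240.7 CPM in tumor 5, the highest of the tumors. Cox8c was 0.026 CPM in tumor 5 and 0 in the other tumors, a difference of 2 counts that is not read further.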

How the results depend on the processing

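No paired analysis was possible because no replicate number is shared between tumor and normal libraries. Across other scalings, filters and tools 67 to 69 ubiquitous genes were higher. Upper quartile scaling and no filter moved the median log2 fold change of all genes to 0.14 and 0.12. The length offset and the fit without normal 2 and tumor 6 were chosen after seeing the data. Leaving out each library in turn gave 40 to 68 members higher and 2 to 5 lower, 2 to 4 tissue-restricted members lower, 0 to 1 non-subunits called, and 3373 to 5912 of all genes higher. Over the lists it gave 9 to 14 carriers higher, 15 to 28 assembly factors higher and 1 to 2 lower, 0 to 1 regulators lower, and 5 to 12 tricarboxylic acid cycle genes higher and 1 to 2 lower. The counts of members and of all genes higher were lowest without normal 1, and the cause was not tested. Genes that missed the threshold changed sign in the same fits. Cox7a1 ranged from −1.22 to 0.30 in log2 fold change, Cox8b from −1.83 to 0.54, Sdhc from −0.22 to 0.060 and Atp5sl from −0.11 to 0.078.

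Without normal 2 and tumor 6 together, 3495 of all genes, 9 carriers, 11 assembly factors and 6 tricarboxylic acid cycle genes were higher, 1 tricarboxylic acid cycle gene and 0 regulators were lower, and Sdhc was at 0.072 and Atp5sl at 0.10. With the length offset 7 members, 5 tissue-restricted forms (among them Cox6a2 and Cox7a1) and 3 assembly factors were lower (31.7% of all genes). The log2 fold change was then −0.96 for Ndufa3, −0.33 for Uqcrb, −0.28 for Ndufs7, −0.20 for Cox7a2l, −0.11 for Cox8a, −0.10 for Cox6a1, 0.082 for Sdhc and 0.10 for Atp5sl. Regulators lower numbered 0 with upper quartile scaling, total counts and the stricter filter, and assembly factors lower numbered 2 with limma voom. Sdhc was at 0.038 with upper quartile scaling, 0.0028 with the stricter filter and 0.0079 without small non-coding and histone genes. Atp5sl was at 0.035 with RLE scaling, 0.098 with upper quartile scaling, 0.064 with the stricter filter, 0.034 with DESeq2 and 0.067 without small non-coding and histone genes. The cause of these shifts was not tested. Depth limits Cox7b2 and Cox8c, whose few counts allow no comparison.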
